A study of Mus musculus with 12 samples.

Results

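The 8 genes described here encode purinergic receptors and the ectonucleotidases that supply or remove their ligands, and they were chosen by symbol as the rows of the count table whose Ensembl identifiers carry these names in the mouse annotation of GRCm38. They comprise 3 P2Y receptors (P2ry12, P2ry13 and P2ry6), 2 P2X channels (P2rx4 and P2rx7), 1 adenosine receptor (Adora3) and 2 ectoenzymes (Entpd1 and Nt5e), out of 55487 genes in the table. Of the 16908 genes that passed the filter on low counts, 7 were among these 8, and Nt5e was not.

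Cells release ATP and other nucleotides as danger and activity signals, and microglia sense them through P2Y receptors, which couple to G proteins, and P2X receptors, which are ATP-gated cation channels. At the cell surface, CD39 (encoded by Entpd1) degrades ATP and ADP to AMP, and CD73 (encoded by Nt5e) converts AMP to adenosine, the ligand of the adenosine receptors. The ADP receptor P2Y12 directs microglial processes toward sites of injury and is widely used as a marker of resident microglia in the unchallenged brain.

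The libraries were prepared from microglia of basal forebrain and striatum of YARG mice, a reporter strain in which YFP is expressed from the Arg1 locus downstream of its stop codon, at postnatal day 13. All 4 groups came from mice of this strain and carried the reporter allele. They were ARG1- microglia (YFP-negative) of females, ARG1- microglia of males, ARG1+ microglia (YFP-positive) of females and ARG1+ microglia of males, with 3 libraries in each group. Tissue from several mice of a sex was pooled for each biological replicate, with 3 litters per sex in the study's methods, and both populations were sorted from such tissue, so an ARG1+ and an ARG1- library may share a pool. Which libraries do is not given in the labels, and the tests treat all 12 as independent. Cells were sorted for CX3CR1, the fractalkine receptor that microglia carry, and against CD206, the macrophage mannose receptor encoded by Mrc1. The comparison asks how the purinergic genes differ between ARG1+ microglia and the ARG1- microglia of the same region. Values are from bulk samples, so fewer cells expressing a gene and less RNA of that gene per cell cannot be told apart.

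Between 30954399 and 60625170 reads were counted in an ARG1- library and between 28356659 and 46569667 in an ARG1+ library, and 3 counts, taken here as the floor, corresponded to 0.0511 to 0.102 CPM (counts scaled to 1000000 per library, with totals normalized by the TMM method). The 8 genes held between 1.01% and 1.71% of all counts of a library. Transcripts of Arg1 itself did not separate the labelled populations, with 0 counts in all 6 ARG1- libraries and in 4 of the 6 ARG1+ libraries and a highest count of 52, so in these libraries the populations rest on the sort for YFP. The paper likewise found no Arg1 transcripts by RNA-seq. It reports by RT-qPCR of sorted cells that Arg1 expression was restricted to the YFP-positive population, and that ARG1 and YFP protein occurred in the same cells. Of 15 microglial identity genes outside the purinergic group, all 15 were tested, and 10 were lower and 1 was higher in ARG1+ microglia, with a median log2 fold change of -0.41. Over all genes tested, 9.42% were lower and 6.44% higher. Of genes with a mean CPM at least that of the lowest purinergic gene tested, 34.1% were called in either direction. Of 9 border macrophage markers, 7 were tested, 1 (Stab1) was higher and 0 were lower, and their summed level was 293 to 513 CPM in ARG1- and 398 to 836 CPM in ARG1+ libraries. Of the 6 not called, Cbr2 (log2 fold change -0.83) and F13a1 (-0.10) were negative and the others positive. Lyve1 had counts in 2 of the 12 libraries (at most 7) and Cd163 in 1 (at most 21), all of them ARG1+. Mrc1 was at 100.3 to 138 CPM in ARG1- and 102 to 231 CPM in ARG1+ libraries. The summed level of 9 oligodendrocyte markers was 262 to 385 CPM in ARG1- and 171 to 264 CPM in ARG1+ libraries, that of 8 astrocyte markers was 178 to 224 and 130 to 151 CPM, and that of 10 neuron markers was 7.53 to 23.2 and 2.70 to 12 CPM. The same sums were 5.12 to 14.1 and 3.70 to 7.91 CPM for 8 monocyte markers, 29.8 to 57.5 and 39.6 to 83.5 CPM for 7 endothelial markers, 3.69 to 17.7 and 0 to 3.38 CPM for 5 red cell genes and 293 to 473 and 386 to 474 CPM for 10 immediate early genes. Slc1a3 (mean 176 CPM in ARG1- and 131 CPM in ARG1+) was the largest part of the astrocyte sum. The largest parts were Cnp (194 and 133 CPM) for oligodendrocyte and Pecam1 (36.5 and 53.1 CPM) for endothelial markers. Mbp was at 65.9 and 43.5 CPM, but Gfap (1.17 and 3.22 CPM) and Pdgfra (1.59 and 0.125 CPM) were low. Cldn5 had 0 counts in every library. Mitochondrial transcripts took 0.247% to 0.636% of counts in ARG1- and 0.147% to 0.396% in ARG1+ libraries. The part of these differences in the results below was not tested.

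Of the 7 purinergic genes tested, 3 passed the limit of 0.05 on the adjusted p in the comparison of the populations (edgeR quasi-likelihood test over all 12 libraries, with sex as a second term). P2ry12 and P2ry13 fell, P2rx4 rose, and P2ry6, P2rx7, Adora3 and Entpd1 did not pass the test. Over all genes tested, 15.9% passed it, with 6.44% higher and 9.42% lower in ARG1+ microglia. Of the 2092 genes with a mean CPM at least as high as the lowest of the 7, 34.1% passed. In the same 3 genes the libraries of the populations did not overlap, which held for 3.48% of all genes tested in the higher and 6.56% in the lower direction. The median log2 fold change of the 7 genes was -0.14, and that of all genes tested was 0.06. Scaling moved the balance of directions over all genes, since 40.6% of the genes called were higher with TMM and 55.2% with library totals alone, while the 3 purinergic genes called kept their direction under both.

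**Figure D1:**
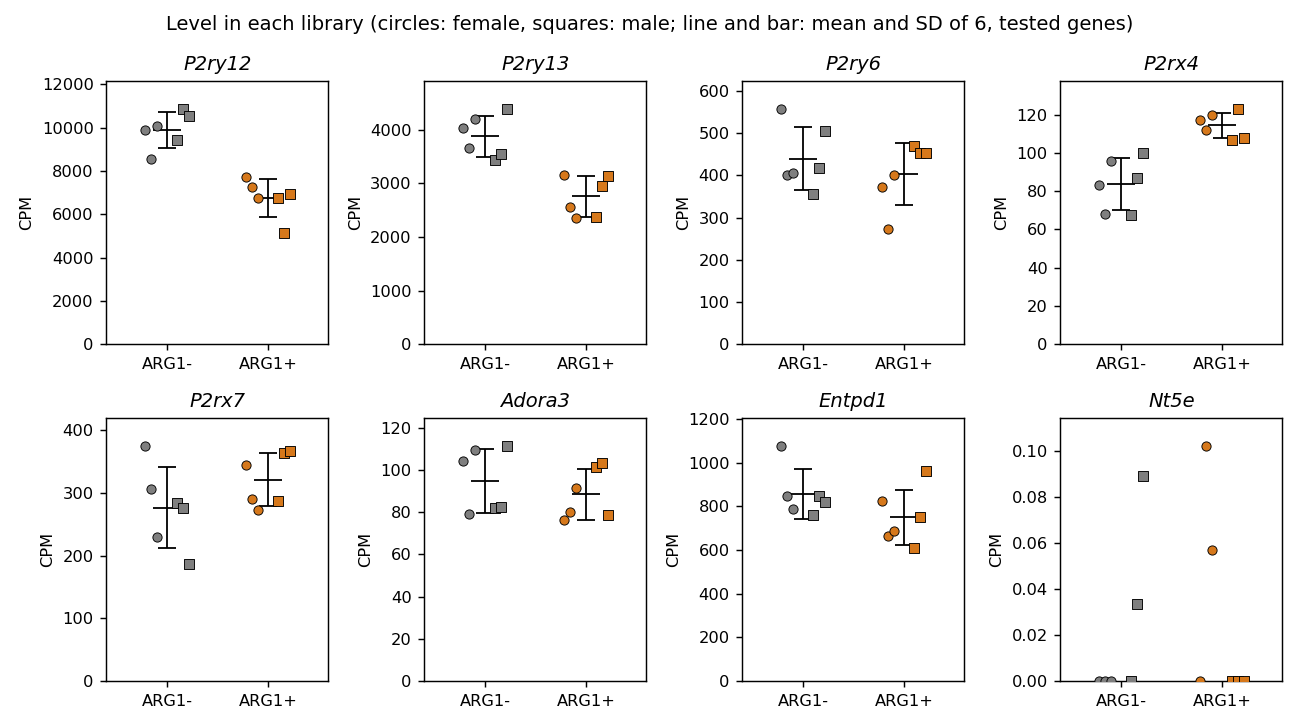
Level of each of the 8 purinergic genes (vertical axes, CPM, each starting at 0) in the 6 ARG1- libraries (grey) and the 6 ARG1+ libraries (orange), with circles for females, squares for males and a line and bar for the mean and SD of the genes tested. P2ry12 and P2ry13 of ARG1+ libraries lie below, and P2rx4 above, every ARG1- library, the other tested genes overlap, and Nt5e stays at or under 0.102 CPM.

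The start regions of the 3 genes that differed are printed first, because P2ry12 and P2ry13 lie next to each other and fell together while P2rx4 rose. P2ry12 (ENSMUSG00000036353) occupies chr3:59216272-59262871 and P2ry13 (ENSMUSG00000036362) chr3:59207892-59210882, both on the minus strand of GRCm38 and separated by 5389 bases, within the span of Med12l on the opposite strand. P2rx4 (ENSMUSG00000029470) occupies chr5:122707544-122729738 on the plus strand. Each sequence runs from 250 bases before to 50 bases after the RefSeq start (GRCm38.p6), read 5′ to 3′ on the strand of the gene, at chr3:59262936-59263235 (minus strand) for P2ry12, chr3:59210833-59211132 (minus strand) for P2ry13 and chr5:122707294-122707593 (plus strand) for P2rx4. For P2ry12 the RefSeq start lies upstream of the gene span given above, so its whole window lies outside that span. Capitals mark the letters of the motifs searched.
P2ry12: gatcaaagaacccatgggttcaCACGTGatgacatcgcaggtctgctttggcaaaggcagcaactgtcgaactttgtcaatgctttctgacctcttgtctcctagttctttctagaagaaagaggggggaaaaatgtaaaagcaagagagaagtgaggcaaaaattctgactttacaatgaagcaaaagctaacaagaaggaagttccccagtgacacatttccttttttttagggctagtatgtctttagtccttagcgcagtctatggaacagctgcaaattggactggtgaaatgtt
P2ry13: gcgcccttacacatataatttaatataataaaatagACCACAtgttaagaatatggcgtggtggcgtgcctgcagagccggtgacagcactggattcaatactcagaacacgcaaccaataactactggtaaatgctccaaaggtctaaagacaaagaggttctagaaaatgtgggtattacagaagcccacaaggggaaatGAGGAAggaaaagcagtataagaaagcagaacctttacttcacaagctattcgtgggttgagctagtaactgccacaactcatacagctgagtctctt
P2rx4: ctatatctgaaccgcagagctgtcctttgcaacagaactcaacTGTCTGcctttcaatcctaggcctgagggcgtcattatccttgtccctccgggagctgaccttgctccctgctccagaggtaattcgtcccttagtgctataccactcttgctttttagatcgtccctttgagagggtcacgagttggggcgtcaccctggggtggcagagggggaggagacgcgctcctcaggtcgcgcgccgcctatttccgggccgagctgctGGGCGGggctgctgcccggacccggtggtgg

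The letters searched, on both strands, were GAGGAA (core of the sites of PU.1, a macrophage transcription factor), TGANTCA (AP-1), TGTGGT (RUNX), CAGACA (SMAD), CACGTG (E-box), GGGCGG (GC box) and the TATA box letters TATAAA, and no set of these letters contains another. Of 32817 windows of the same length, 28.3% held GAGGAA, 7.81% TGANTCA, 16.8% TGTGGT, 21% CAGACA, 7.15% CACGTG, 35.6% GGGCGG and 13.6% TATAAA. The neighbours P2ry12 and P2ry13 shared none of them. P2ry12 held CACGTG once, starting at position -228 from the RefSeq start, and P2ry13 held TGTGGT at -214 and GAGGAA at -48. P2rx4 held CAGACA at -207 and GGGCGG at 20 bases into the transcript. In all, 7 of the 8 genes had 1 or more windows in the table, P2ry6 being the exception. GAGGAA occurred in windows of P2ry13, P2rx7, Adora3 and Entpd1, and TGANTCA in windows of P2rx7 and Adora3. A match of letters describes the sequence and is no evidence of binding.

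P2ry12 encodes the Gi-coupled ADP receptor of resident microglia. In ARG1- libraries its lowest, median and highest levels were 8556, 9993 and 10853 CPM, and in ARG1+ libraries they were 5144, 6852 and 7740 CPM. All ARG1+ libraries lay below all ARG1- libraries, and the lowest was ARG1+ male replicate 12. The mean was 9897 ± 821 CPM (SD, n = 6) in ARG1- and 6763 ± 878 CPM (SD, n = 6) in ARG1+ microglia, a 1.47-fold difference (log2 fold change -0.55, SE 0.09, edgeR adjusted p = 0.00243). Per exon length its level was 3887 RPKM (CPM divided by exon length in units of 1000 bases) in ARG1- and 2656 RPKM in ARG1+ microglia.

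P2ry13 encodes another Gi-coupled ADP receptor. Its lowest, median and highest levels were 3446, 3848 and 4385 CPM in ARG1- libraries and 2361, 2753 and 3160 CPM in ARG1+ libraries. Here too the populations did not overlap. The mean went from 3878 ± 382 CPM (SD, n = 6) to 2757 ± 374 CPM (SD, n = 6), a 1.41-fold decrease (log2 fold change -0.49, SE 0.10, edgeR adjusted p = 0.0064). Both ADP receptors were called in all 12 fits that left out 1 library, with adjusted p of at most 0.0112 for P2ry12 and 0.0224 for P2ry13.

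Over both sexes together, the mean proportion of the neighbouring ADP receptors to each other was nearly the same in the 2 populations. The ratio of P2ry12 to P2ry13 counts within a library had a geometric mean of 2.55 in ARG1- microglia (range 2.34 to 3.06) and 2.45 in ARG1+ microglia (range 1.75 to 2.86). The ranges overlapped and the difference of the log2 ratios was -0.06 (exact permutation test over libraries, two-sided, n = 6 and 6, adjusted p = 0.727). The lowest ratio was that of ARG1+ male replicate 12, and without a library the difference ranged from -0.10 to 0.04. Within a sex the log2 fold changes of P2ry12 and P2ry13 were -0.39 and -0.56 in females, but -0.71 and -0.43 in males. A change of the ratio within a sex was not tested.

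P2ry6 encodes a Gq-coupled receptor for UDP that is tied to phagocytosis by microglia. Its lowest, median and highest levels were 355, 412 and 557 CPM among ARG1- and 274, 426 and 469 CPM among ARG1+ libraries. The populations overlapped widely, and the ARG1+ males (452, 454 and 469 CPM) all lay above the ARG1+ females (274, 372 and 400 CPM). This difference between the sexes did not pass the edgeR test, as given below. The mean was 440 ± 75.1 CPM (SD, n = 6) in ARG1- and 403 ± 73.3 CPM (SD, n = 6) in ARG1+ microglia (log2 fold change -0.14, SE 0.14, edgeR adjusted p = 0.574).

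P2rx4 encodes the ATP-gated channel P2X4, which is found largely in lysosomes and at the surface of activated microglia. Its levels were 67.7, 85.1 and 99.7 CPM (lowest, median and highest) in ARG1- libraries and 107, 115 and 123 CPM in ARG1+ libraries. Every ARG1+ library exceeded every ARG1- library, and the ARG1+ libraries were closer to each other (SD 6.48 against 13.6 CPM). The mean rose 1.37-fold, from 83.6 ± 13.6 to 114 ± 6.48 CPM (SD, n = 6 each, log2 fold change 0.45, SE 0.12, edgeR adjusted p = 0.0201). It was called in all 12 fits that left out 1 library, with a highest adjusted p of 0.048.

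P2rx7 encodes P2X7, a channel that opens at high ATP and leads to inflammasome activation, and lies 16111 bases from P2rx4 on chromosome 5 (chr5:122643911-122691432, plus strand). Levels ranged from 187 to 375 CPM in ARG1- libraries (median 280) and from 273 to 367 CPM in ARG1+ libraries (median 317). The ARG1+ range lay inside the ARG1- range. The mean was 276 ± 64.5 CPM (SD, n = 6) in ARG1- and 321 ± 42.2 CPM (SD, n = 6) in ARG1+ microglia (log2 fold change 0.22, SE 0.16, edgeR adjusted p = 0.383). The ratio of the neighbouring channels, P2rx4 to P2rx7, went from 0.306 to 0.358, which did not pass the test (difference of log2 ratios 0.23, exact permutation test, adjusted p = 0.428).

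Adora3 encodes the Gi-coupled adenosine A3 receptor. It lay between 79.1 and 111 CPM in ARG1- libraries (median 93.2) and between 76.3 and 103 CPM in ARG1+ libraries (median 85.7). The populations overlapped over most of their ranges, and the test was not passed (log2 fold change -0.10, SE 0.13, edgeR adjusted p = 0.671). The gene (chr3:105870858-105908926, plus strand) shares 779 exon bases, 20.9% of its exon length, with Tmigd3 on the same strand, so reads in that stretch cannot be assigned to 1 of these genes. A table row with no name in the annotation used (ENSMUSG00000118531) carried 43.3% to 49.7% of the count of Adora3 in every library.

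Entpd1 encodes CD39, the ectoenzyme that degrades extracellular ATP and ADP in microglia. Its levels were 759, 833 and 1076 CPM (lowest, median and highest) in ARG1- libraries and 610, 718 and 960 CPM in ARG1+ libraries. The highest value belonged to ARG1- female replicate 1, and the populations overlapped. The mean was 856 ± 113 CPM (SD, n = 6) in ARG1- and 749 ± 127 CPM (SD, n = 6) in ARG1+ microglia (log2 fold change -0.19, SE 0.12, edgeR adjusted p = 0.334).

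Nt5e, which encodes CD73, had no count in 8 of the 12 libraries. The other 4 held 1 and 3 counts (ARG1- males) and 2 and 3 counts (ARG1+ females). No library exceeded the floor of 3 counts, so no difference between the populations was detectable at this depth, and no fold change is given. In the same libraries Entpd1, which acts one step before it, had at least 19571 counts.

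**Figure D2:**
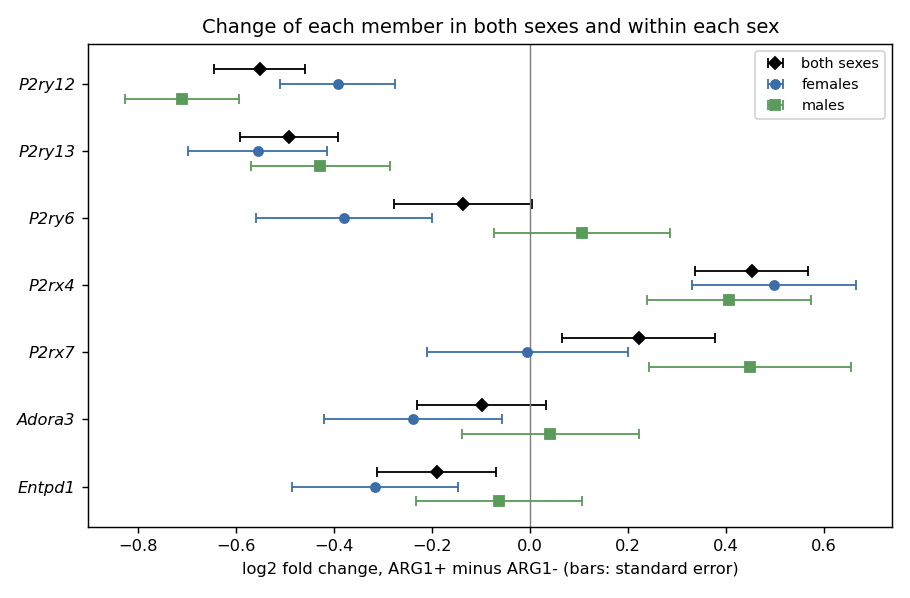
Log2 fold change of the 7 tested purinergic genes, ARG1+ minus ARG1- (horizontal axis), with the standard error as bars, for both sexes (black diamonds), females (blue circles) and males (green squares). P2ry12 and P2ry13 lie left of 0 and P2rx4 right of 0 in both sexes, and P2ry6 is at -0.38 in females and 0.11 in males.

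Within each sex, in a fit of the 4 group means over all 12 libraries, most tests of the same 3 genes missed the limit. Their populations did not overlap in females or in males, with the same direction. That had to follow from their non-overlap over all 12 libraries and is no separate result. Populations of 3 libraries did not overlap, in either direction, in 32.0% of all genes tested in females and in 29.0% in males. These shares are no yardstick for the 3 genes. In females P2ry12 had a log2 fold change of -0.39 (SE 0.12, edgeR adjusted p = 0.0681), P2ry13 fell by 0.56 (SE 0.14, adjusted p = 0.0411) and P2rx4 had 0.50 (SE 0.17, adjusted p = 0.0994). In males P2ry12 fell by 0.71 (SE 0.12, adjusted p = 0.0175), P2ry13 had -0.43 (SE 0.14, adjusted p = 0.102) and P2rx4 had 0.41 (SE 0.17, adjusted p = 0.174). Each sex thus called 1 of the 7 genes, where 6.76% of all genes tested were called in females (2.60% higher, 4.16% lower) and 5.13% in males (2.03% higher, 3.10% lower). In males P2rx7 also did not overlap, at 187 to 284 CPM in ARG1- and 288 to 367 CPM in ARG1+ libraries (log2 fold change 0.45, edgeR adjusted p = 0.222), whereas in females it was at -0.01.

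None of the 7 genes differed between males and females in ARG1- microglia, in ARG1+ microglia or in the difference of these effects after adjustment (edgeR quasi-likelihood test). Over all genes tested, 0.0946%, 0.0355% and 0% were called in these contrasts. At an unadjusted p under 0.05, 0 of the 7 genes passed in any of them, against 1692, 528 and 1576 of all 16908 genes tested, and DESeq2 also called 0 of the 7. The smallest unadjusted p belonged to P2ry6 in ARG1+ microglia (log2 fold change, male minus female, 0.39, SE 0.18, edgeR adjusted p = 1) and, for the difference of the sex effects, to P2ry12 (-0.32, SE 0.16, edgeR adjusted p = 0.587).

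**Figure D3:**
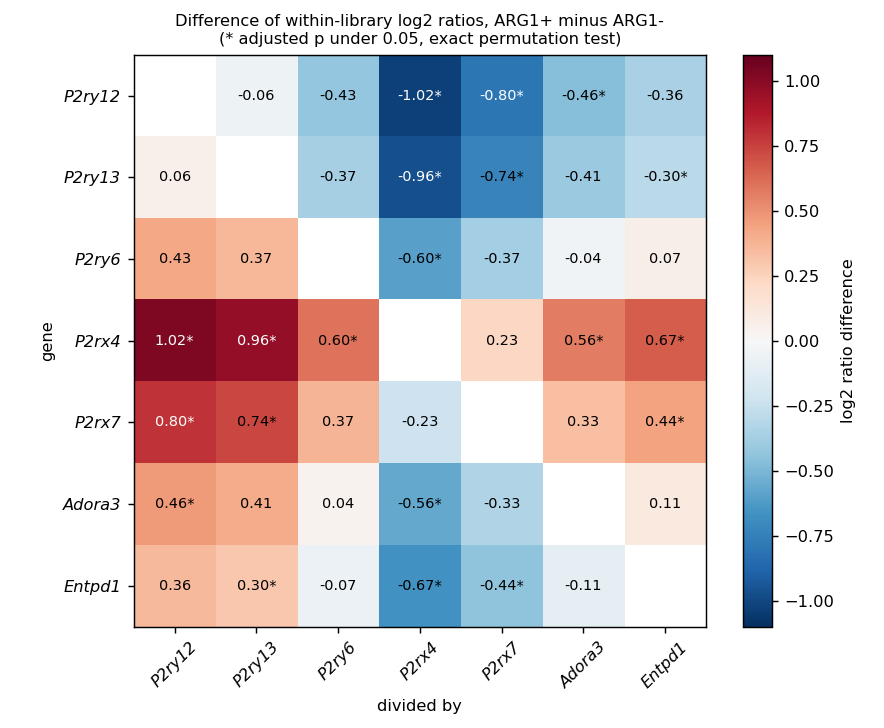
Difference between ARG1+ and ARG1- microglia of the log2 ratio of each gene (rows) to each other gene (columns) within a library, on a color scale from -1.1 (blue) to 1.1 (red), with the value printed in each cell and an asterisk where the exact permutation test gave an adjusted p under 0.05. The row of P2rx4 is positive against every other gene, with asterisks in 5 of its 6 cells, and the rows of P2ry12 and P2ry13 are negative against every gene other than each other.

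Ratios within a library do not depend on the scaling of libraries, so all 21 pairs of the 7 tested genes were compared (exact permutation test of the mean log2 ratio over the libraries, with 924 arrangements, two-sided, Benjamini-Hochberg adjustment over the 21 pairs). The test was passed by 10 pairs, 47.6% of the 21, and the smallest p the design allows is 0.00216. The same limit on the unadjusted p was reached by 20.8% of all pairs of tested genes and by 41.2% of pairs among the 2092 genes at the level of these 7 or above, so the number of pairs is near that background and is no result about these genes. P2rx4 took part in 5 of these pairs. Relative to P2rx4, P2ry12 was about 119 times as abundant in reads in ARG1- microglia (range 105 to 139) and 58.7 times in ARG1+ microglia (range 41.9 to 66.2), a difference of -1.02 on the log2 scale (adjusted p = 0.00909, exact). The ratio of P2ry13 to P2rx4 moved from 46.7 (range 40.7 to 53.8) to 23.9 (range 19.7 to 29.2), a log2 difference of -0.96 with the same adjusted p of 0.00909 (exact). For both ADP receptors the ratio to this channel did not overlap between the populations, which held for 5 of the 21 pairs (23.8%), for 7.11% of all pairs of tested genes and for 18.9% of pairs among the 2092 genes.

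The ADP receptors also fell relative to P2rx7. The log2 difference was -0.80 for P2ry12 and -0.74 for P2ry13 (adjusted p = 0.00909 for each, exact permutation test), and in ARG1+ libraries the ratio of P2ry13 to P2rx7 spanned a narrow range of 8.09 to 9.18. Relative to Entpd1, P2rx4 rose by 0.67 (adjusted p = 0.017, exact), P2rx7 rose by 0.44 (adjusted p = 0.00909, exact) and P2ry13 fell by 0.30 (adjusted p = 0.0253, exact). P2rx7, which did not pass the test on its own level, passed it relative to 3 of the other 6 genes, among them P2ry12 and P2ry13, which themselves fell. Of pairs among the 2092 genes at the level of the 7 or above, 41.2% reached the limit on the unadjusted p. The count for P2rx7 is thus no result about this gene. The remaining pairs under the limit were P2ry6 to P2rx4 (-0.60, adjusted p = 0.013, exact), P2rx4 to Adora3 (0.56, adjusted p = 0.013, exact) and P2ry12 to Adora3 (-0.46, adjusted p = 0.0409, exact). The ratio of P2ry13 to Entpd1 passed in 11 of the 12 tests that left out a library (adjusted p = 0.0556, exact, without ARG1+ female replicate 15). The ratio of P2ry12 to Adora3 had an adjusted p of 0.0525 when libraries were permuted within each sex and passed in 4 of the 12 tests that left out a library.

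**Figure D4:**
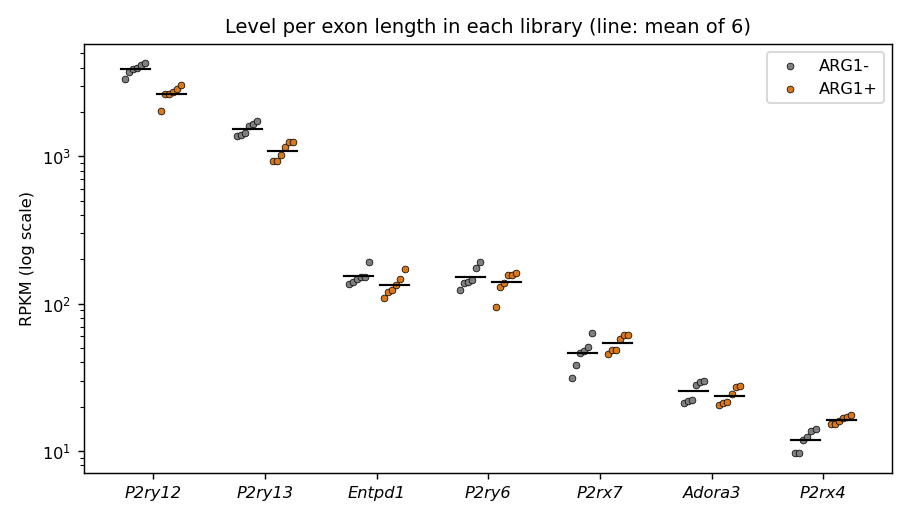
Level per exon length (vertical axis, RPKM, log scale) of the 7 tested purinergic genes in each of the 6 ARG1- (grey) and 6 ARG1+ (orange) libraries, with a line at the mean. P2ry12 and P2ry13 lie above the other genes in every library, from 934 RPKM upward, and P2rx4 is the lowest in both populations.

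To compare levels between genes, counts were divided by the length of the union of exons. In ARG1- microglia the order was P2ry12 (3887 ± 322 RPKM, SD, n = 6), P2ry13 (1534 ± 151), Entpd1 (153 ± 20.3), P2ry6 (152 ± 26), P2rx7 (46.3 ± 10.8), Adora3 (25.4 ± 4.05) and P2rx4 (11.9 ± 1.93). In ARG1+ microglia it was P2ry12 (2656 ± 345 RPKM, SD, n = 6), P2ry13 (1090 ± 148), P2ry6 (140 ± 25.4), Entpd1 (134 ± 22.8), P2rx7 (53.8 ± 7.07), Adora3 (23.8 ± 3.23) and P2rx4 (16.3 ± 0.922). The neighbours in these orders were separated in all 6 libraries of a population, except Entpd1 and P2ry6, which kept their order in 5 of 6 ARG1- and 3 of 6 ARG1+ libraries and did not differ beyond their spread. With the length of the longest protein-coding transcript, an alternative added after seeing the data, P2ry6 lay above Entpd1 in both populations, and in ARG1+ microglia P2rx4 (42.3 RPKM) lay above Adora3 (37.4 RPKM) in 5 of 6 libraries.

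The genes with the most similar pattern were taken as the 3 with the smallest root mean square (RMS) difference of centred log2 CPM over the 12 libraries. For P2ry12 they were Cdc42 (0.103), Tmco1 (0.118) and Nipsnap2 (0.123), where the median over all genes was 0.65. For P2ry13 they were Liph (0.082), Pak1 (0.114) and Crot (0.134), and for P2rx4 they were Arfrp1 (0.12), Arhgap4 (0.14) and Fubp1 (0.143). Neither ADP receptor was among the nearest genes of the other. P2ry6 was nearest to Ppme1 (0.124), Drg2 and Ube2z, P2rx7 to Shc1 (0.111), Tm9sf2 and Pacsin2, and Entpd1 to Gm5171 (0.112), Dusp6 and Tspan14. Adora3 was nearest to the unnamed row described with it (0.049), followed by Fam50a (0.137) and Usp21 (0.137). The genes were picked for their likeness, so no test applies.

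The wider purinergic pathway was described with lists of genes chosen by function. Of the other P2Y receptors, 2 of 4 were tested and 0 passed, and P2ry2, an ATP and UTP receptor that lies 21918 bases from P2ry6, was at 1.17 ± 1.6 and 2.28 ± 2.14 CPM (SD, n = 6 each, log2 fold change 0.76, SE 1.53). Gpr34, a lysophosphatidylserine receptor and the 1 of 5 P2Y12-like relatives that was tested, fell from 4712 to 2493 CPM (log2 fold change -0.92, SE 0.12, edgeR adjusted p = 0.000655). Of the other P2X channels, 3 of 5 were tested and 0 passed, P2rx1 having the highest mean CPM at 75.6 and 57.5 CPM (edgeR adjusted p = 0.207). Of the other adenosine receptors, 2 of 3 were tested and 0 passed, and Adora1 was at 3.25 and 2.96 CPM. Of the genes of these receptor lists, Gpr34 was the 1 that passed the test. Over all genes tested 15.9% passed, so the counts for these lists are given as a description.

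Among the other ectonucleotidases, 6 of 11 genes were tested, 1 was higher and 0 were lower in ARG1+ microglia. Over all genes tested 15.9% passed, with 6.44% higher and 9.42% lower, so the counts for these enzyme lists are a description. The gene called higher was Cd38, the ectoenzyme that consumes NAD. It had at most 1 count in any ARG1- library and lay between 0.34 and 2.73 CPM in ARG1+ libraries. Set against the mean floor of 3 counts in ARG1- libraries (0.0807 CPM), the mean of the ARG1+ libraries (1.66 CPM) was at least 20.5-fold higher. Cd38 passed the filter on low counts only through the ARG1+ libraries, so it had to differ, and its call is given as a description. Enpp2, which encodes autotaxin, had the highest mean CPM of the others at 40.8 and 44.9 CPM and did not pass (edgeR adjusted p = 0.989). Of the intracellular NTPDases, 3 of 5 were tested and 0 passed. Entpd6 was the highest of them at 47.8 and 50.2 CPM, and the near-identical Entpd4 and Entpd4b were listed at 0 in every library, where shared reads may not have been counted.

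Of 15 genes of adenosine uptake and turnover, 14 were tested, 1 was higher and 2 were lower (15.9% of all genes tested passed), with a median log2 fold change of -0.29. Pnp, the purine nucleoside phosphorylase that breaks down inosine and guanosine, ranged from 230 to 272 CPM in ARG1- and from 108 to 164 CPM in ARG1+ libraries. Its populations did not overlap (log2 fold change -0.93, SE 0.10, edgeR adjusted p = 0.000397). Its near-identical copy Pnp2 fell by 1.56 on the log2 scale (adjusted p = 0.0083), and reads shared by these copies make the split between them uncertain. Ampd2, an AMP deaminase, rose from 33.3 to 47.3 CPM (log2 fold change 0.51, edgeR adjusted p = 0.0273), and was called in 7 of 12 fits without a library. Slc29a3, a lysosomal nucleoside transporter, had the highest mean CPM of the rest at 446 and 552 CPM (edgeR adjusted p = 0.28). Of 8 genes of ATP release, 7 were tested and 0 passed, and the highest mean CPM was that of the volume-regulated channel subunit Lrrc8d at 91.5 and 130.1 CPM (edgeR adjusted p = 0.0677). Lrrc8d was called higher in 5 of 13 other settings, which were DESeq2 size factors (adjusted p = 0.0462), library totals alone (0.0255), at least 10 counts in every library (0.0224), the DESeq2 test (0.0136) and a term for libraries numbered 13 to 16 (0.0367), and in 2 of 12 fits without a library.

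**Figure D5:**
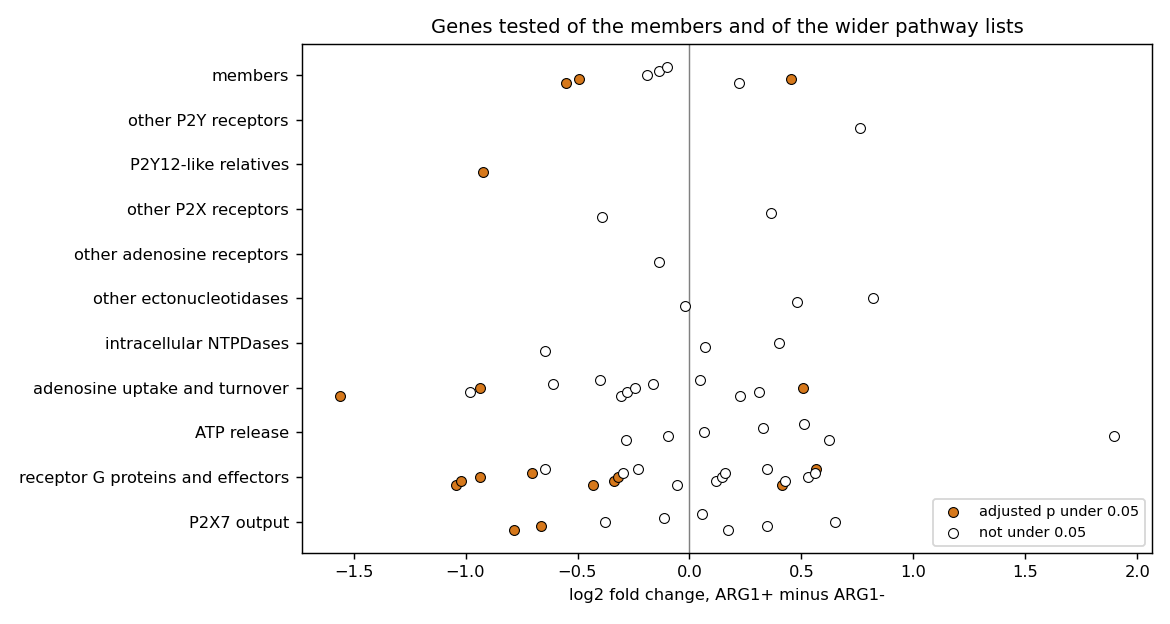
Log2 fold change, ARG1+ minus ARG1- (horizontal axis), of the 7 tested purinergic genes (members) and of 59 tested genes of the wider lists (rows), filled where the edgeR adjusted p was under 0.05, with vertical offsets for legibility. The 7 tested list genes with a mean under 1 CPM in a population, Cd38 among them, are left out, and the filled points of the G protein list lie on both sides of 0.

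All 20 receptor G protein and effector genes were tested, of which 2 were higher and 7 were lower, with a median log2 fold change of -0.14. Among all genes tested 15.9% passed, and among the 2092 genes at the level of the 7 or above 34.1%. The number called is thus given as a description of this list. The negative regulators of G protein signaling Rgs10 and Rgs2 fell most within this list, from 691 to 341 CPM (log2 fold change -1.02, SE 0.14, edgeR adjusted p = 0.000859) and from 837 to 406 CPM (-1.04, SE 0.09, edgeR adjusted p = 0.000187). Each was non-overlapping between the populations. The alpha subunit Gna15 fell from 562 to 417 CPM (-0.43, SE 0.07, edgeR adjusted p = 0.00218), whereas Gna13 rose from 143 to 191 CPM (0.41, SE 0.09, edgeR adjusted p = 0.00813). The adenylate cyclase Adcy7 rose from 167 to 246 CPM (0.57, edgeR adjusted p = 0.0334). The beta subunit Gnb2 fell by 0.70 and the gamma subunit Gng10 by 0.94 on the log2 scale. The inhibitory subunit Gnai2, through which P2Y12 and P2Y13 act, had 1170 and 925 CPM (-0.34, SE 0.10, edgeR adjusted p = 0.039), and the stimulatory subunit Gnas 683 and 550 CPM (-0.32, SE 0.10, edgeR adjusted p = 0.0439). The calls of Gnai2 and Gnas were close to the limit, since each was called in 2 of 12 fits without a library and neither with DESeq2 size factors (adjusted p = 0.0524 and 0.0719), upper-quartile factors (0.0512 and 0.0577), library totals alone (0.0783 and 0.13) or no filter (0.113 and 0.136). Gng10 was called in 4 of 12 fits without a library and had an adjusted p of 0.0615 with library totals alone, and Adcy7 was called in 8 of these 12 fits. Pik3cg, the phosphoinositide kinase driven by G protein beta-gamma subunits, had the highest mean CPM of the rest at 281 and 314 CPM (edgeR adjusted p = 0.521). The potassium channel Kcnk13, which sets the resting potential of microglia and was picked after its values were seen, was at 199 and 189 CPM (edgeR adjusted p = 0.854).

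All 8 genes downstream of P2X7 were tested, 0 were higher and 2 were lower (15.9% of all genes tested passed), with a median log2 fold change of -0.03. The inflammasome adaptor Pycard ranged from 261 to 324 CPM in ARG1- and from 168 to 217 CPM in ARG1+ libraries, without overlap (log2 fold change -0.66, SE 0.08, edgeR adjusted p = 0.000676). The cytokine gene Il18 fell from 39.9 to 23.2 CPM (-0.78, SE 0.21, edgeR adjusted p = 0.0264) and was called in 7 of 12 fits without a library, with an adjusted p of 0.0553 with library totals alone. Nek7, which licenses the NLRP3 inflammasome, had the highest mean CPM of the rest at 273 and 284 CPM and did not pass (edgeR adjusted p = 0.812). P2rx7 itself did not pass the test, as given above.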

How the data were processed

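RNA-seq libraries of 12 samples were analysed, 3 in each of the 4 groups. Per the paper's methods and the submitters' processing notes, complementary DNA was made with SMART-Seq v4 and libraries with Nextera XT, and single-end reads were aligned with STAR 2.6.1d to GRCm38 and counted per gene with featureCounts 1.5.1. The strand setting and annotation release are not given in the sources used here. The authors deposited these raw counts without normalization, and all columns were matched to samples by name (0 left unused). Reads carry no molecular identifiers, so copies made in amplification are counted as reads, and the floor of 3 counts covers counting error only.

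Symbols, positions and exon lengths were taken from GENCODE M21, which matched 55227 of 55487 identifiers (the others held 0.0333% of counts). In R 4.3.3, edgeR 4.0.16 was used with filterByExpr on the 4 groups, TMM and glmQLFTest on ARG1 status and sex over all 12 libraries, with Benjamini-Hochberg adjustment over 16908 genes and a limit of 0.05. SEs are the absolute log2 fold change divided by the square root of F. Sex effects, and ARG1 effects within a sex, came from a fit of the 4 group means. Ratios of 2 genes were formed within a library after adding 0.5 to counts. Scripts were tested on simulated data. All 12 pairs of same-group libraries differed by 30.9 to 98.4 times their degrees of freedom (chi-square), which is more than counting error. Amplification adds to this spread, so the value cannot show that libraries are independent biological samples. Each library was treated as 1 replicate. Libraries of both populations may come from the same pools of tissue, but nothing in the labels ties them to a litter or pool, so no block was fitted.

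The 8 genes, the lists and the tests were chosen with earlier results of these data known. Of each pathway list, genes past the limit and the one with the highest mean CPM of the rest are named. Kcnk13 and single genes of the cell type lists, such as Mrc1 and Stab1, are named in addition. Alternatives were other scalings, filters, covariates and sexes, DESeq2 1.42.0, thinned counts and each library left out.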

Additional observations from a re-analysis of the deposited data

Results flagged for a closer look

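In groups of 6 libraries the highest or lowest value was set against the others by Dixon's ratio (gap over range, read against its critical value for 6 samples). Chance alone flags about 1 in 20 groups, and 7 of 110 groups were flagged. Among the purinergic genes, Entpd1 in ARG1- female replicate 1 was at 1076 CPM, where the other ARG1- libraries lay between 759 and 846 CPM. The log2 ratio of P2ry12 to P2rx4 in ARG1+ male replicate 12 was 5.39, below the 5.82 to 6.05 of the other ARG1+ libraries, and the difference between the populations was -0.93 to -1.06 when any 1 library was left out. The log2 ratio of P2ry6 to Entpd1 in ARG1- male replicate 14 was -0.70, where the others lay between -1.1 and -0.95. Of the pathway genes, Enpp2 in ARG1- female replicate 1 was at 133 CPM (others 4.94 to 52.3), Nek7 in ARG1- male replicate 6 at 340.2 CPM (others 256 to 264), Lrrc8d in ARG1- male replicate 14 at 52.6 CPM (others 93.9 to 107) and Pnp2 in the same library at 2.46 CPM (others 5.08 to 6.33).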

How the results depend on the processing

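No paired analysis was possible because the groups share no replicate number in the labels, and which ARG1+ and ARG1- libraries came from 1 pool of tissue is not given there. P2ry12, P2ry13 and P2rx4 were called, in the same direction, under each alternative that kept both sexes and without each of the 12 libraries, and the number of purinergic genes called stayed at 3 (1 higher, 2 lower). With females alone 2 were called (0 higher, 2 lower), and with males alone 0, where 1 gene of all (1 higher, 0 lower) was called. Within the fit of the 4 group means, females and males each called 1 (0 higher, 1 lower). These fits compare 3 with 3 libraries. Genes called over the whole table numbered 2682 (1089 higher, 1593 lower), 4105 with DESeq2 (2141 higher, 1964 lower), 986 with females alone (467 and 519), 1143 (440 and 703) and 868 (344 and 524) in females and males of the 4 group means, and 1753 to 2669 without a library (690 to 1116 higher, 1048 to 1553 lower, fewest without ARG1+ male replicate 12). For sex, 16 genes in ARG1- and 6 in ARG1+ microglia became 0 and 0 with at least 10 counts in every library and 404 and 39 with DESeq2, which gave 284 for the difference of the sex effects (0 in edgeR, 0 to 10 without a library), and 11 to 48 in ARG1- and 6 to 6 in ARG1+ microglia without a library. Of the pairs, 8 to 13 were called without a library.

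The reversed values all belong to genes and pairs that were not called, and the cause was not tested. Enpp2, at -0.02, was 0.018 with DESeq2 size factors, 0.097 with library totals alone, 0.0058 with no filter, 0.016 with at least 10 counts, 0.022 with DESeq2, 0.14 with ARG1 status alone, 0.048 with a term for libraries numbered 13 to 16, 0.41 with females alone, 0.40 in females of the 4 group means and -0.31 to 0.85 without a library. With females alone Pik3cg was -0.033, and in females of the 4 group means it was -0.049 and P2rx7 -0.00505. With males alone P2ry6 was 0.10, Adora3 0.038 and Nek7 -0.15, and in males of the 4 group means 0.11, 0.042 and -0.15. Without a library Adora1 ranged from -0.54 to 0.21, Entpd6 from -0.00032 to 0.19 and Nek7 from -0.00026 to 0.14, and the log2 ratio differences of P2ry12 to P2ry13 from -0.10 to 0.039, of P2ry6 to Adora3 from -0.11 to 0.041 and of P2ry6 to Entpd1 from -0.035 to 0.15.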
